A study of Rattus norvegicus with 6 samples.

Results

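Among the genes that the deposited list of N6-methyladenosine (m6A) intervals in fetal rat penile tissue gives 3 to 10 intervals, 787 have every interval on a single grid of 25 bp. For these genes every width, taken as end minus start, is a whole multiple of 25 bp, and every start leaves the same remainder when divided by 25. They are 787 of 4397 genes with 3 to 10 intervals (17.9%) and of 13146 genes in the list. They hold 3037 of the 31999 gene assignments, or 2976 of 29268 distinct intervals, the rest of the assignments being repeats of an interval under another gene. The genes were thus chosen by the widths and starts of their intervals in this list, and neither property is a finding about them. The other 3610 genes of 3 to 10 intervals fall into 1320 whose widths are all whole multiples of 25 bp but whose starts leave different remainders, called here genes on several grids, and 2290 with at least 1 width that is not such a multiple, called here genes with a broken width.

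The tissue came from Sprague-Dawley rat fetuses taken at GD19.5, counted in gestational days from the vaginal plug. The control group has 3 samples, from normal male fetuses of dams that were given corn oil by gavage between gestational days 12 and 19, and the case group has 3 samples from male fetuses with hypospadias after maternal di-(2-ethylhexyl) phthalate (DEHP) over the same days. In hypospadias the urethra opens on the ventral side of the penis, short of its tip, and DEHP is a plasticizer that lowers fetal androgen production in the rat. The list covers the whole series and carries 0 columns of values per sample, so no gene can be compared between case and control, the depth is unknown, and the tissue label could not be checked against marker genes. The list also does not tell in which sample an interval was called, and the sources used here do not say how many fetuses made up a sample.

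As background, m6A is placed on messenger RNA by a methyltransferase complex built around METTL3 and METTL14, and proteins of the YTH family bind it and act on the decay, splicing and translation of the transcript. In mammals it lies mainly in long internal exons and around stop codons and in 3' untranslated regions, while sequence close to exon junctions carries little, since exon junction complexes keep the methyltransferase away. Immunoprecipitation of RNA fragments finds enriched stretches, not single adenosines. A gene whose intervals share one grid is a candidate for intervals that lie in a single exon, since an intron of arbitrary length between them would usually shift the grid. No annotation of the list's positions was used here, so no interval was placed in an exon, intron or untranslated region, and that reading of the rule was not checked.

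The list names genes by Ensembl ID only. None of the 787 IDs is found in the gene, promoter or miRNA sequence tables used here (0 matches), so no symbol, function or sequence is given. Positions are those of the list, counted from 1, and the list names no genome build. The submitters' notes name Rnor_6.0, but the highest interval end on chromosome 1, at 260249035, lies well short of that chromosome's end in Rnor_6.0 and close to its end in the later assembly mRatBN7.2. The build is therefore unsettled, and the positions serve here only to identify intervals within the list.

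The member genes with the most intervals show how such a gene looks. ENSRNOG00000068825, on the plus strand of chromosome 3 from 162377472 to 162384396, has 10 intervals over a span of 6925 bp. From 5' to 3' they are 500, 125, 175, 300, 175, 400, 175, 1300, 75 and 175 bp wide, so a single interval near the 3' end, from 162382372 to 162383671, is several times as wide as most of the others. Its gaps run from 25 to 1125 bp, and its intervals cover 49.1% of the span. ENSRNOG00000062890, on the plus strand of chromosome 5 from 76557707 to 76562956, also has 10 intervals. Here the widest, of 675 bp, is the third from the 5' end, the gaps run from 25 to 700 bp, and 61.4% of the span is covered. ENSRNOG00000031031, on the minus strand of chromosome 5 between 49388018 and 49396692, has 9 intervals over 8675 bp. Its 5'-most interval and the one before its 3'-most are both 1050 bp wide, and its 3'-most is 100 bp wide beyond a gap of 1200 bp. Its intervals sum to 5350 bp, the most of the 787 genes.

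Smaller members show the same alternation of intervals and gaps on a shorter stretch. The 3-interval gene of median span, ENSRNOG00000008046 on chromosome 6, has intervals of 200, 425 and 400 bp with gaps of 300 and 175 bp. The corresponding 4-interval gene, ENSRNOG00000006684 on chromosome 8, has widths of 600, 325, 525 and 225 bp with gaps of 25, 375 and 75 bp. For 5 intervals this gene is ENSRNOG00000004947 on chromosome 7, with widths of 475, 75, 400, 300 and 400 bp, the first and second touching. For 6 it is ENSRNOG00000010158 on chromosome 1, whose gaps lie between 200 and 375 bp and whose 5'-most interval, of 125 bp, is its narrowest. The 7-interval gene ENSRNOG00000000112 on chromosome 16 covers 48.6% of its span and the 8-interval gene ENSRNOG00000059492 on chromosome 1 covers 47.7%. In the latter, the first 7 intervals lie at most 275 bp apart and the 3'-most follows after 1275 bp.

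**Figure D1:**
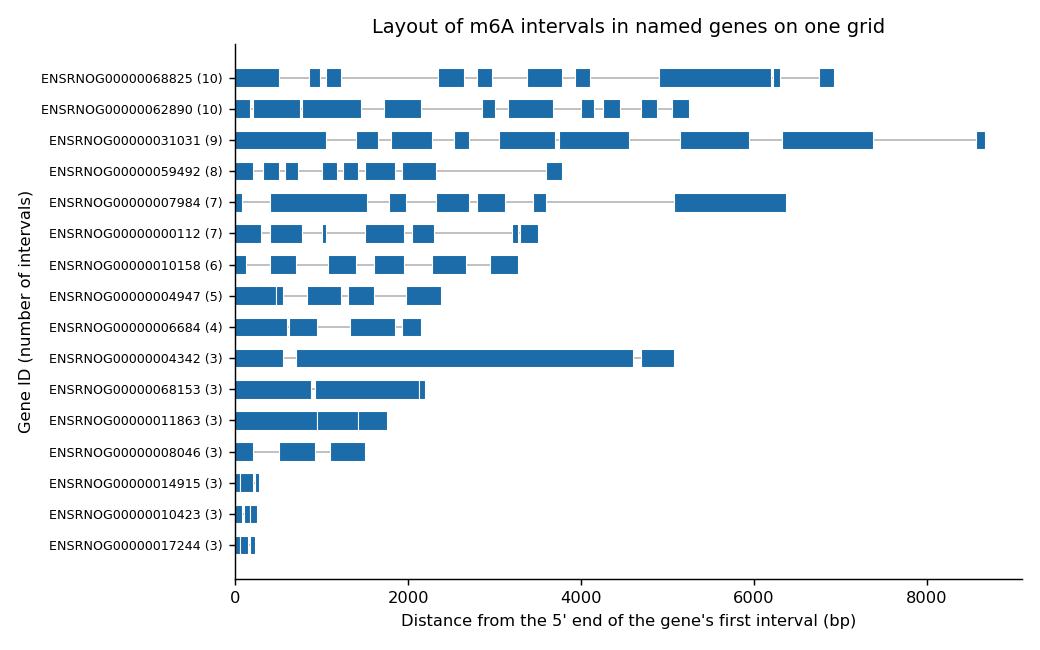
Each row is a gene on one grid, named by the fixed rule and with a span of at most 10 kb, and each block is an interval at its distance in bp from the 5' end of the gene's first interval, 5' to the left. The layouts run from 3 intervals within 225 bp to 9 intervals over 8675 bp, with wide blocks at the 5' end, inside or at the 3' end.

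At the narrow end of the range, ENSRNOG00000017244 on chromosome 5 has 3 intervals of 50, 100 and 50 bp within 225 bp. ENSRNOG00000010423 on chromosome 7 has 3 of 75 bp each within 250 bp, and ENSRNOG00000014915 on chromosome 16 has 50, 150 and 50 bp within 275 bp. In each of these genes 1 gap is 0 bp and the other 25 bp, so the list divides what is nearly a continuous stretch. ENSRNOG00000011863, on the minus strand of chromosome 19, has intervals of 950, 475 and 325 bp that touch and cover 100% of its span of 1750 bp. ENSRNOG00000068153 on chromosome 2 comes next, with 97.7% of 2200 bp covered. Touching intervals (a gap of 0 bp) occurred in 71 of the 787 genes (9.02%) and in 94 of the 1320 genes on several grids (7.12%). A count of intervals per gene in this list is therefore not a count of separate enriched stretches.

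The members spanned short stretches of genome. The median span from first start to last end was 1900 bp (exact 95% interval of the median 1800 to 1975 bp), with quartiles of 1325 and 2712.5 bp, against a median of 20616.5 bp (19380 to 22030 bp) in the other genes. Spans of at most 5 kb were found in 743 members (94.4%) and 571 other genes (15.8%). Conversely, of the 109 genes of 3 to 10 intervals that spanned at most 1 kb, 95 (87.2%) were on one grid. The share was 68.3% of 681 genes over 1 and up to 2.5 kb, 34.9% of 524 over 2.5 and up to 5 kb, 4.50% of 555 over 5 and up to 10 kb, and 0.752% of 2528 above that. A short span leaves less room for anything that would shift the grid, so span and membership are bound together by the rule, and these shares are a description with no test. Intervals of medians come from ranks, those of shares by the Wilson method. All of them treat genes as independent, which they are not.

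**Figure D2:**
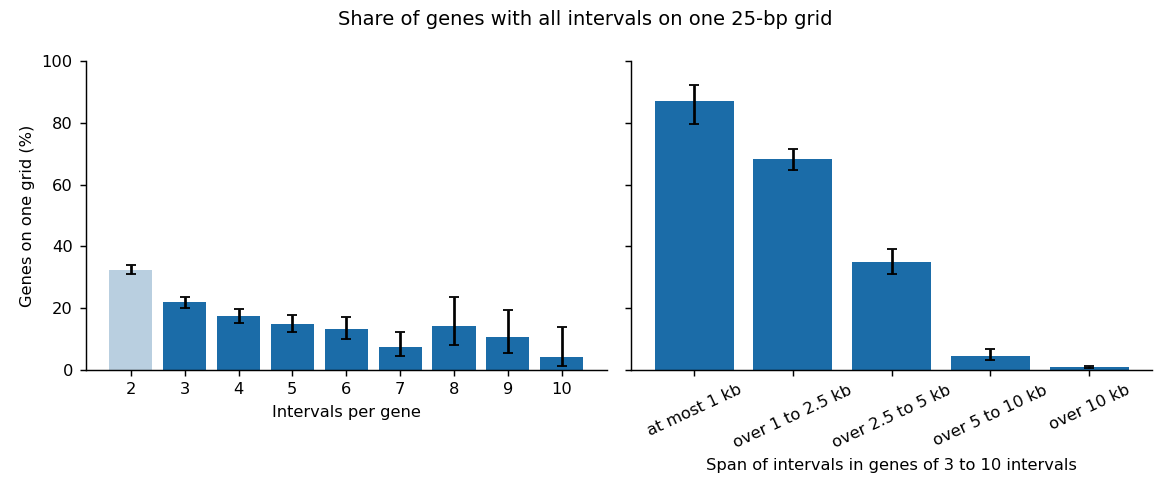
Percentage of genes with all intervals on one grid, by number of intervals per gene (left, 2-interval genes in pale blue lie outside the rule) and by span in genes of 3 to 10 intervals (right), with 95% Wilson intervals as error bars. The share falls from 32.4% of genes with 2 intervals to 13.2% with 6, and from 87.2% in spans of at most 1 kb to 0.752% beyond 10 kb.

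Membership varied with the number of intervals. Each further interval must also meet the rule, so number and membership are bound together by it, and the shares are a description with no test. Membership held for 434 of 1992 genes with 3 intervals (21.8%), 180 of 1041 with 4 (17.3%), 91 of 617 with 5 (14.7%) and 47 of 356 with 6 (13.2%), and for 35 of the 391 genes with 7 to 10 (8.95%). Among the last, the share did not fall steadily, at 7.45% with 7, 14.1% with 8, 10.5% with 9 and 4.08% with 10. Just outside the rule, 1118 of 3447 genes with 2 intervals (32.4%) and 7 of 103 with more than 10 (6.80%) were on one grid. The gene with the most among these, ENSRNOG00000057569 on chromosome 1, has 24 intervals in 15925 bp. Members with more intervals spanned more: the median was 1500 bp with 3 intervals, 2150 bp with 4, 2375 bp with 5 and 3275 bp with 6. The median covered length rose from 862.5 bp with 3 intervals to 1550 bp with 6.

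Within these stretches the intervals were dense. They covered a median of 60.6% of the span (exact 95% interval 58.1 to 62.6%), with quartiles of 44.1 and 74.2%. In the other genes the median was 16.5%, and when both sets were limited to spans of at most 10 kb the medians were 61.6% and 40.7%. Within that span the other genes were not alike: the median was 57.5% in genes with a broken width, near that of the members, and 19.4% on several grids. The limit of 10 kb did not make spans equal. The median span within it was 1850 bp in members and 4719 bp in the other genes. By class it was 4505 bp with a broken width and 5291 bp on several grids. The same holds for later comparisons of members with other genes within 10 kb. The total covered length of a member was 1025 bp at the median, the same value as in genes on several grids, where it was spread over a median span of 23260.5 bp. Thus, over all spans, the members and the genes on several grids had like amounts of covered sequence and unlike distances between the pieces. The median number of intervals was 3 in members and 4 on several grids, and distance is bound to the rule. With spans of at most 10 kb, the median covered length was 1025 bp in members (exact 95% interval 1000 to 1100 bp). On several grids it was then 900 bp (825 to 975 bp). Genes with a broken width covered 3808.5 bp at the median over all spans and 1895 bp with spans of at most 10 kb. These are genomic lengths that may include introns.

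Gaps between neighbouring intervals of the members had a median of 175 bp over 2250 pairs, with quartiles of 75 and 400 bp. Of these pairs, 781 (34.7%) lay at most 100 bp apart and 164 (7.29%) more than 1000 bp. In the other genes 22.4% of 11828 pairs lay within 100 bp and 41.6% beyond 1000 bp. With spans of at most 10 kb, pairs within 100 bp were 34.9% in members and 27.5% in the other genes, and pairs beyond 1000 bp were 6.45% and 27.1%. Every gap was at most 1000 bp in 639 members (81.2%). Of all 1083 genes with this property, 59.0% were on one grid, 404 (37.3%) had a broken width and 40 (3.69%) were on several grids. The distance between midpoints of neighbouring intervals in members had a median of 512.5 bp and quartiles of 337.5 and 750 bp.

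**Figure D3:**
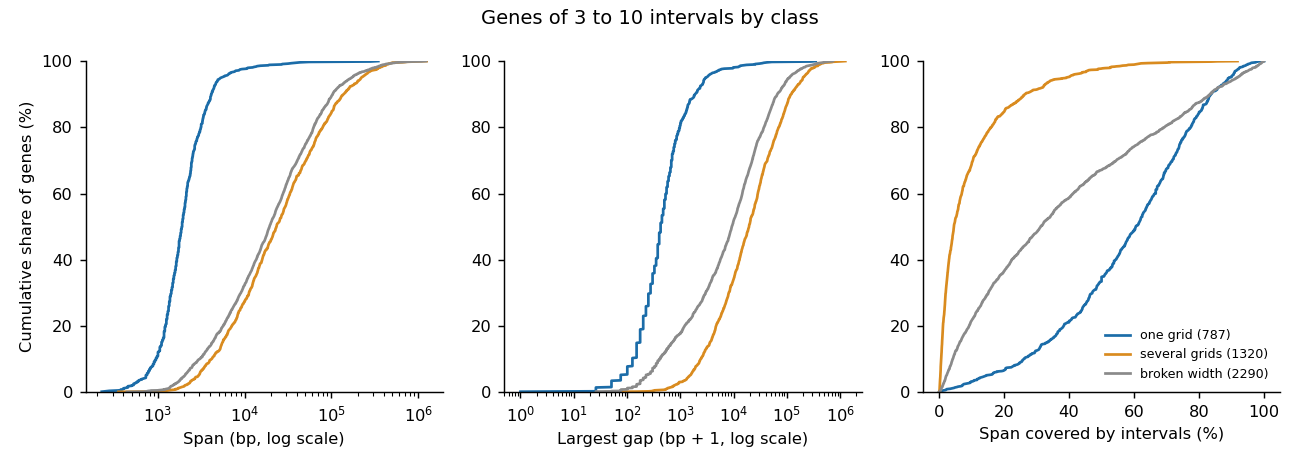
Cumulative percentage of genes of 3 to 10 intervals by span (left, bp, log scale), by largest gap between neighbouring intervals (middle, bp plus 1, log scale) and by the percentage of the span that intervals cover (right), for genes on one grid (blue, 787), on several grids (orange, 1320) and with a broken width (grey, 2290). The blue curves rise around a span of 1900 bp and a largest gap of 425 bp, and the blue curve of coverage has its median at 60.6% of the span.

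A small part of the members does not look like a single compact stretch. Spans of more than 10 kb were found in 19 members (2.41%), and in 15 of them 1 gap exceeded 10 kb. The longest, ENSRNOG00000055382 on the plus strand of chromosome 2, has an interval of 175 bp from 49552945 to 49553119. Its other intervals, of 125 and 150 bp, lie 346125 bp further 3', 200 bp apart. In ENSRNOG00000025899 on chromosome 6, the 5' intervals of 175 and 50 bp are separated by 281750 bp from one of 725 bp. ENSRNOG00000005515 on chromosome 10 comes next, with a gap of 52050 bp. ENSRNOG00000055382 and ENSRNOG00000025899 have the lowest covered shares of all members, 0.130% and 0.336%. The single interval lay 5' of the largest gap in 12 of the 19 genes and 3' of it in the other 7. Unrelated starts share a remainder in 4% of pairs by arithmetic alone. Of the 978 genes over 10 kb with whole-multiple widths, 1.94% were on one grid. The former is a rate per pair of starts and the latter a share of genes with several starts each, so they cannot be compared directly. A common grid in these 19 genes does not by itself place their intervals in a common exon, and its origin was not tested.

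Set against widths of the same kind, the sizes of the members' intervals were similar to those of the other genes. The members' intervals had a median of 225 bp, with quartiles of 150 and 375 bp, and the whole-multiple widths in the other genes had a median of 225 bp with quartiles of 125 and 375 bp. Over all widths of the other genes the median was 275 bp, with an upper quartile of 550 bp. The width found most often, 175 bp, took 407 of their 3037 intervals (13.4%, 95% Wilson interval 12.2 to 14.7%), against 12.0% of 12220 whole-multiple widths in the other genes. The narrowest width in the list, 50 bp, made up 8.86% against 10.2%. Widths over 1000 bp were 64 of the members' intervals (2.11%), against 2.61% in genes on several grids and 21.8% in genes with a broken width. The widest, of 4550 bp, is the 5'-most interval of ENSRNOG00000000557 on chromosome 20, and the next, of 3900 bp, is the middle interval of ENSRNOG00000004342 on chromosome 6. Within a member the widest interval was a median of 4 times as wide as the narrowest, with quartiles of 2.35 and 6.75, and all widths were equal in 5 genes.

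The widest interval lay at the 5' end and at the 3' end of the members in nearly equal counts. It was the 5'-most in 212 genes (26.9%, 95% Wilson interval 24.0 to 30.1%), the 3'-most in 216 (27.4%, 24.4 to 30.7%), an interior one in 302 (38.4%), and tied in 57. The order along the strand was not used by the rule. Genes on several grids had it at the 3' end in 428 (32.4%) and at the 5' end in 183 (13.9%), and genes with a broken width in 408 (17.8%) and 833 (36.4%). With spans of at most 10 kb in every class, the 5' and 3' shares were 27.2% and 27.2% in members, 16.6% and 30.7% on several grids, and 36.5% and 24.5% with a broken width. Over 1 and up to 2.5 kb, the widest was the 5'-most in 130 and the 3'-most in 142 of 465 members. The counts were 56 and 53 in 171 genes with a broken width, and 10 and 18 in 45 on several grids. Near-equal ends were thus also found in genes with a broken width of that span. In a broken width the genomic length may include introns, so that class is not a like comparison. These differences between classes of genes were not tested, since genes of a single list are not replicates.

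The end intervals gave the same picture. The 5'-most interval was wider than the 3'-most in 386 members, narrower in 353 and equal in 48. On several grids the 5'-most was wider in 405 genes and narrower in 832. The median width was 250 bp at the 5' end and 225 bp at the 3' end of members, and 175 bp and 250 bp on several grids. Among 3-interval genes, medians from 5' to 3' were 250, 237.5 and 225 bp in the 434 members, and 175, 250 and 250 bp on several grids. On several grids the 5' interval was thus the narrowest of the 3 at the median, and in members the medians were within 25 bp of each other. The gap at the 5' end was larger than that at the 3' end in 374 members and smaller in 381, whereas on several grids it was larger in 764 and smaller in 544. With spans of at most 10 kb, the 5' gap was larger in 362 members and smaller in 374. With a broken width it was then larger in 377 and smaller in 344, and on several grids in 211 and 147. Among 3-interval genes of that span, width medians were all 275 bp in the other genes together. They were 406, 300 and 311 bp with a broken width and 150, 250 and 225 bp on several grids. Nearly equal end gaps were thus not particular to members.

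**Figure D4:**
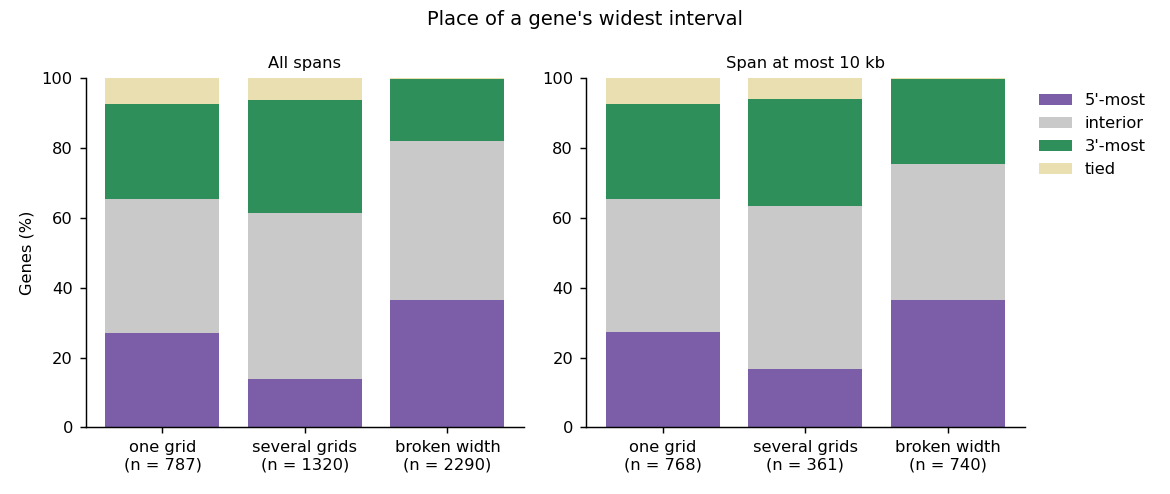
Percentage of genes of 3 to 10 intervals whose widest interval is the 5'-most, an interior one, the 3'-most or tied, by class of gene, over all spans (left) and for spans of at most 10 kb (right). The 5' and 3' parts are close to equal in genes on one grid, at 26.9% and 27.4% over all spans. They are unequal in the other classes over both ranges of span drawn.

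Many genes missed the rule by a single interval. In 769 genes on several grids (17.5% of the 4397 genes of 3 to 10 intervals) all starts but 1 shared a remainder. Of the 1320 genes on several grids, 595 have 3 intervals, and in these a single pair of starts with a common remainder is enough. Their median span was 16893 bp, with a median largest gap of 15163 bp, and 263 of them spanned at most 10 kb. The start that stood apart was that of the 5'-most interval in 490 genes (63.7%), of the 3'-most in 271 (35.2%) and of an interior one in 8. An interior start stands apart only where starts on both sides of it share a remainder, so its count and those of the ends are not like quantities. The split was not tested. Another 174 genes (3.96%) had a common remainder but a width that is no multiple of 25 bp. Their median span was 2920 bp, with quartiles of 1820.5 and 7413 bp, above the members' median of 1900 bp. Their median largest gap was 446 bp, against 425 bp in members. In 159 of these genes only 1 width was of this kind.

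Few members shared an interval with another gene. At least 1 interval was also assigned to another gene in 84 members (10.7%, 95% Wilson interval 8.70 to 13.0%), against 996 of the other genes (27.6%, 26.2 to 29.1%). With spans of at most 10 kb the shares were 10.9% and 34.0%. The other genes were not alike: over all spans the share was 20.1% on several grids and 31.9% with a broken width. With spans of at most 10 kb these were 25.2% and 38.2%. All intervals were shared in 71 members (9.02%) and 326 other genes (9.03%), so over all spans the sets differed in the genes that share only some intervals, which were 13 of the 84 members. With spans of at most 10 kb, all intervals were shared in 9.24% of members and 16.3% of the other genes. The partner lay on the opposite strand for 50 members, so for these the list does not tell which gene carried the signal or which end is 5'. A further 34 shared only with genes of their own strand. In 16 cases 2 members had an identical set of intervals, 10 of them on opposite strands, which leaves 771 distinct sets. The difference in sharing was not tested.

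The 787 genes were spread over all 20 autosomes and X. The share of genes of 3 to 10 intervals on one grid was 17.6% of 4285 on the autosomes together, and ran from 11.2% on chromosome 20 to 23.2% on chromosome 18. On X it was 33 of 109 genes (30.3%, 95% Wilson interval 22.4 to 39.5%). X-linked genes also spanned at most 10 kb more often, in 57.8% against 42.1% of autosomal genes. Among genes within that span the share on one grid was 52.4% of 63 on X (40.3 to 64.2%) and 40.7% of 1805 on autosomes (38.5 to 43.0%), intervals that overlap. Among 3-interval genes it was 35.1% of 57 on X and 21.4% of 1932 on autosomes. The difference was not tested, and the part of span in it was not tested either. The 33 X-linked members had a median span of 1875 bp, against 1900 bp in the 754 autosomal ones. Of these, ENSRNOG00000007984, on the minus strand between 60297351 and 60303725, has the most intervals. Its 7 intervals include one of 1125 bp, the second from the 5' end, and one of 1300 bp at the 3' end after a gap of 1475 bp. The Y chromosome had 2 genes of 3 to 10 intervals and the mitochondrial genome 1, none of them on one grid.

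**Figure D5:**
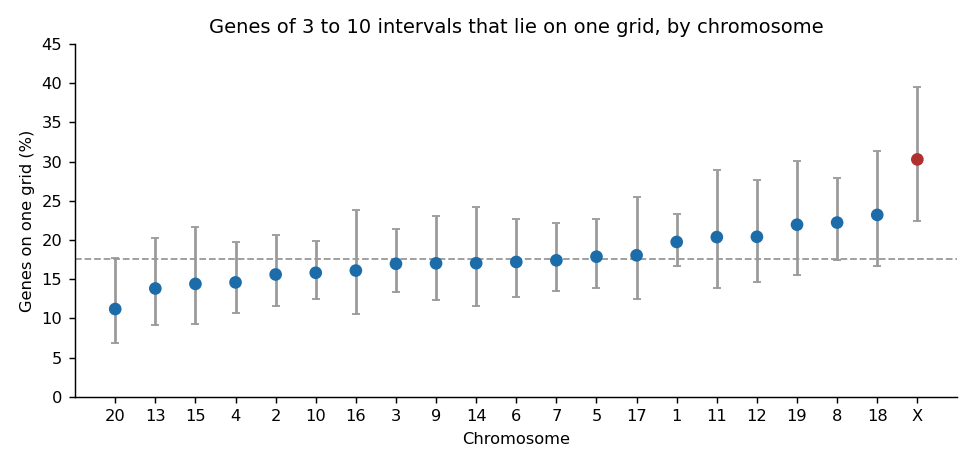
Percentage of genes of 3 to 10 intervals that lie on one grid, by chromosome in ascending order, with 95% Wilson intervals and the autosomal share of 17.6% as a dashed line. Among the 20 autosomes and X shown, X, in red, is highest at 30.3% and chromosome 20 lowest at 11.2%. Y and the mitochondrial genome, with 2 genes and 1, are not drawn.

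By strand, 411 of 2250 plus-strand genes (18.3%) and 376 of 2147 minus-strand genes (17.5%) were members. The grids of different members were not one common grid of the genome. All 25 remainders occurred, each in 21 to 44 genes, with a mean of 31.5.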

How the data were processed

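Methylated RNA immunoprecipitation sequencing was made on 6 samples. Per the submitters' processing notes, HISAT2 and the build Rnor_6.0 were used. The peak caller, its threshold, the annotation and any pooling of samples are not stated in these sources. The deposited table lists chromosome, start, end, Ensembl gene ID and strand, per the file headers, with no count, ratio or p-value, so only positions, in bp, were analysed. Starts were read as counting from 0, since most differences between end and start are whole multiples of 25 bp. The positions look like those of the later assembly mRatBN7.2, which was not checked against sequence.

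Genes were classed in pandas 2.3.3 and numpy 2.4.6 under Python 3.11.15, intervals of shares came from scipy 1.17.1, and matplotlib 3.10.9 drew the figures. The classing was tested on simulated data. A gene's intervals were ordered 5' to 3' by its strand. No test was made: the rule uses positions, no value belongs to a sample, and genes of 1 list are not replicates. Members and comparisons were chosen with earlier results of these data known. Named genes were those at the extremes of interval number, span, covered share and width, those of median span for 3 to 8 intervals, those with the most intervals on X, Y and the mitochondrial genome, and 1 gene outside the rule. Alternatives changed the intervals kept, joined near ones, limited the span, removed repeated sets, and changed the step or the fewest intervals.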

Additional observations from a re-analysis of the deposited data

How the results depend on the processing

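Of 36 values recomputed under 7 alternatives, 28 stayed within the exact or Wilson 95% interval of the reported value or, for the number of genes, within 1.5 times of it. Part of this tally was set in advance. The limit of 10 kb on the span removed only 19 of the 787 members, and a set of 1 gene per interval set kept 771. The count with at least 4 intervals only leaves out the 434 members with 3. The number of genes on one grid was 353 with at least 4 intervals and 21 with a step of 50 bp. After joining intervals up to 100 bp apart it was 481. Joining left 3516 genes of 3 to 10 intervals in place of 4397, with 13.7% on one grid in place of 17.9%. The number stayed between 715 and 771 under the other 4. The share of genes of 3 to 10 intervals on one grid did not stay as close in all of them. It was 21.2% with only intervals of 1 gene and 41.1% with spans of at most 10 kb. Without intervals of 50 bp it was 18.0%, and with 1 gene per interval set 17.9%. Joining also moved the median gap to 300 bp, the median span to 2350 bp, the median width to 275 bp, the covered share to 55.6% and the share of genes with the widest interval at the 3' end to 30.8%. It changes both the intervals and which genes have 3 or more, and the cause of these shifts was not tested. No paired analysis was possible because no column of the list belongs to a sample, and for the same reason no replicate could be left out. The reads behind an interval are not given, and what depth limits is therefore unknown.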
